A study of Mus musculus with 3 samples.

Results

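The 10 genes described here encode dual-specificity phosphatases that act on MAP kinases: Dusp1, Dusp2, Dusp3, Dusp4, Dusp5, Dusp6, Dusp7, Dusp8, Dusp10 and Dusp16. They were taken by gene symbol from a measured set of 55536 genes, and each symbol matched a single gene. The libraries were made from C57BL/6J mouse bone-marrow-derived macrophages that had been given lipid A at 100 ng/ml for 25 min, and they hold ribosomal-RNA-depleted total RNA of the cytosolic fraction, from 1 µg of RNA each. Lipid A is the membrane anchor of bacterial lipopolysaccharide and the ligand of the receptor TLR4. All 3 libraries belong to this single group, with the same genotype, agent, dose and time. No untreated, nuclear or later sample was analysed here, so the values below are levels at a single time and not responses to lipid A. The labels number the libraries as biological replicates 1 to 3, tie them to a single donor record, and do not say whether they came from separate animals or cultures. Their spread is therefore the spread between these 3 libraries, which may be technical in part.

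MAP kinases are switched on when an upstream kinase phosphorylates both a threonine and a tyrosine in their activation loop. Dual-specificity MAP kinase phosphatases remove both phosphates and so switch the kinases off again. Several of their genes are themselves switched on early by MAP kinase signalling, which makes them feedback inhibitors. Dusp1, Dusp2, Dusp4 and Dusp5 are the inducible nuclear enzymes, Dusp6 and Dusp7 are cytoplasmic and prefer ERK, and Dusp8, Dusp10 and Dusp16 prefer JNK and p38. Dusp3, also called VHR, is a small atypical member that lacks the kinase-docking domain of the others. In macrophages Dusp1 is best known for limiting p38 and JNK activity after a Toll-like receptor has been engaged.

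The catalytic site of these enzymes is a loop with a histidine and a cysteine at its start and an arginine at its end, and the cysteine takes up the phosphate. The 24 coding bases of that loop are shown for the leading transcript of each gene because they are what the 10 genes have in common; the capitals mark the histidine, cysteine and arginine codons, by which the stretch was found. Sequences are from GENCODE M21 transcripts on mm10, the annotation of the deposited tables, and are written 5′ to 3′ on the coding strand.
Dusp1: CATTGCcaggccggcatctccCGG
Dusp2: CACTGCcaagctggcatctctCGC
Dusp4: CACTGCcaggccggcatctccCGA
Dusp5: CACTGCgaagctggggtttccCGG
Dusp6: CATTGCttggcaggtatcagcCGC
Dusp7: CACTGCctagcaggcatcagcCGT
Dusp8: CACTGTctggctggcatctctCGC
Dusp10: CACTGCcaggccggcgtgtccCGA
Dusp16: CACTGCttagctgggatctctCGC
Dusp3: CATTGCcgcgagggctacagcCGC
Each leading transcript held the pattern once. Over the 45 pairs of genes, between 11 and 22 of the 24 bases were identical, with a median of 17, and the codons used in the search count towards that number. Dusp4 shared 22 bases with Dusp1 and 22 with Dusp10, whereas Dusp3 and Dusp5 shared 11. The loop lay in the last exon of Dusp1 (exon 4 of 4, chr17:26506592-26506615, minus strand), Dusp2 (exon 4 of 4, chr2:127337616-127337639, plus strand) and Dusp3 (exon 3 of 3, chr11:101974902-101974925, minus strand). In Dusp8 and Dusp16 it lay in exon 6 of 7. The coding frames ran from 185 codons in Dusp3 to 663 in Dusp8.

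Gene counts summed to 52956907, 43547422 and 38608503 in replicates 1, 2 and 3. The cells carried the macrophage label in their RNA: all 10 of 10 macrophage markers reached 1 TPM in every library, among them Lyz2, Csf1r and Adgre1. None of the markers of T cells, B cells, mast cells, erythroid cells, stromal cells or dendritic cells did so, and 4 of 8 neutrophil markers did. Replicate 2 stood apart in RNA that normally stays in the nucleus. Malat1, a nuclear long non-coding RNA, was at 392, 1144 and 374 TPM in replicates 1, 2 and 3, and Neat1, another one, at 32.4, 106.5 and 37.3 TPM. The summed level of the 8 neutrophil markers was also highest there, at 33.6, 55.7 and 40.2 TPM. Of these markers S100a9 was at 15.9, 27.4 and 17.4 TPM, S100a8 at 9.6, 14.9 and 12.4 TPM, Ngp at 2.69, 6.21 and 2.1 TPM and Mmp8 at 4.51, 4.39 and 6.85 TPM. Ltf was at 0.47, 1.42 and 1.14 TPM, and Elane, Mpo and Camp were under 1 TPM in all 3 libraries. Nuclear protein-coding genes took 22.7, 22.9 and 29.8% of all TPM, so a TPM in replicate 3 is higher than in the others for the same share of messenger RNA. Comparisons between genes below use TPM, a level per transcript length, and comparisons between libraries use CPM, the counts of a gene relative to its library after scaling by edgeR's TMM method. By CPM, Ltf was at 2.23, 5.99 and 1.29, S100a9 at 9.37, 15.2 and 8.14, and Neat1 at 305, 909 and 300. Replicate 2 was still highest for these genes, but replicate 3 was below replicate 1, the reverse of their TPM. S100a8, Ngp and Mmp8 had the same order of libraries on both scales.

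The phosphatase genes covered a wide range of levels, and a few of them held most of the RNA. With a level of 1 TPM in every library taken as detected, 8 of the 10 genes were detected, beside 41.3% of 22015 nuclear protein-coding genes. Above 10 TPM in every library were 4 of the 10, Dusp1, Dusp2, Dusp3 and Dusp7, beside 15.2% of those genes. Above 50 TPM were Dusp1 and Dusp2, 2 of 10, beside 2.89%. The 10 genes summed to 263, 291 and 417 TPM in replicates 1, 2 and 3. Dusp1 alone made up 45.6% ± 2.5 (SD, n = 3) of that sum, and Dusp1, Dusp2 and Dusp3 together 86.9% ± 1.9 (SD, n = 3). In bulk RNA like this, fewer cells that express a gene and less RNA per cell cannot be told apart.

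**Figure D1:**
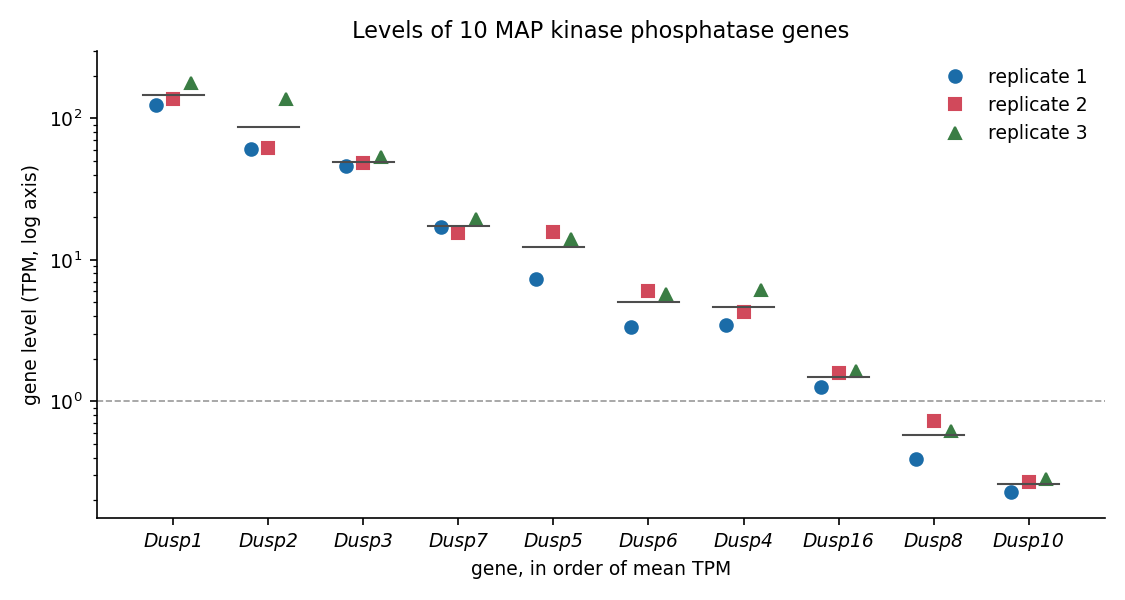
TPM of each phosphatase gene in each library on a log axis; points are the 3 libraries, short lines their mean, and the dashed line 1 TPM. The mean levels run from 146 TPM for Dusp1 to 0.26 TPM for Dusp10, and Dusp8 and Dusp10 lie under the dashed line in every library.

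Among the inducible nuclear phosphatases, Dusp1 had the highest level of all 10 genes. Dusp1 was at 124, 137 and 178 TPM in replicates 1, 2 and 3, a mean of 146 ± 28.2 TPM (SD, n = 3), from 21616, 18264 and 17837 counts. It ranked 237th by mean TPM among the nuclear protein-coding genes. After scaling, its libraries were nearly level, at 415, 422 and 451 CPM. Dusp2, a phosphatase found mainly in immune cells, was at 60.5, 61.5 and 138 TPM, with 8421, 6402 and 11168 counts. Replicate 3 was high for Dusp2 and the other two libraries were close together. On the scaled counts Dusp2 was at 162, 148 and 282 CPM, so replicate 3 was high on both scales. Dusp5, which acts on ERK in the nucleus, was at 7.34, 15.8 and 14.1 TPM, a mean of 12.4 ± 4.46 TPM (SD, n = 3). Its lowest library was replicate 1, on both scales: the scaled counts were 32.9, 66.1 and 47.3 CPM. Dusp4, which acts on ERK and JNK, was at 3.48, 4.3 and 6.11 TPM, from 908, 872 and 909 counts. Its highest TPM was in replicate 3, and its scaled counts of 17.4, 20.2 and 22.97 CPM had the same order.

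Of the cytoplasmic ERK phosphatases, Dusp7 was the more abundant. Dusp7 was at 16.98, 15.4 and 19.5 TPM, a mean of 17.3 ± 2.06 TPM (SD, n = 3), and its 91.2, 78.0 and 83.1 CPM lay close together. Dusp6, a feedback inhibitor whose transcription is widely used as a readout of ERK activity, was at 3.33, 5.98 and 5.72 TPM, a mean of 5.01 ± 1.46 TPM (SD, n = 3). Its scaled counts were 15.4, 27.7 and 20.3 CPM, lowest in replicate 1 and highest in replicate 2, as for Dusp5. In every library Dusp7 was higher than Dusp6 on the TPM scale.

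Dusp8, Dusp10 and Dusp16, grouped above as preferring JNK and p38, were the lowest of the 10. Dusp1, which also limits p38 and JNK, was the highest, so this holds for that group alone. Dusp16 was at 1.26, 1.59 and 1.63 TPM, a mean of 1.49 ± 0.203 TPM (SD, n = 3), from 592, 533 and 415 counts. Dusp8 was at 0.39, 0.73 and 0.62 TPM, from 186, 247 and 168 counts. Dusp10 was at 0.23, 0.27 and 0.28 TPM, from 61, 56 and 42 counts. The counts of Dusp8 and Dusp10 are far above the 3 counts that a value of 0 would allow, so both genes had reads in every library though neither reached 1 TPM.

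The atypical Dusp3 was the third most abundant, at 46.0, 48.6 and 53.0 TPM, a mean of 49.2 ± 3.59 TPM (SD, n = 3). Its counts, 16194, 13519 and 10406, passed those of Dusp2 in replicates 1 and 2, while its TPM was lower in all 3, since its leading transcript has 4212 bases against 1617 for Dusp2. An antisense gene, Gm20659, overlaps the 3′ end of Dusp3. It was given 581, 372 and 427 counts in the alignment-based tables but 6, 0 and 0 in the alignment-free tables, whose counts are summed over transcripts. The sources used here do not say whether the counting used strand, and without it reads of Dusp3 and Gm20659 cannot be told apart. The counts given to Gm20659 are few beside those of Dusp3 in every library.

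In the order of mean TPM, Dusp1, Dusp2, Dusp3, Dusp7, Dusp5, Dusp6, Dusp4, Dusp16, Dusp8 and Dusp10, there are 9 pairs of neighbours. For 6 of the 9 pairs the lowest library of the higher gene was above the highest library of the lower gene. The ranges of Dusp1 and Dusp2 overlapped, because Dusp2 in replicate 3 (138 TPM) passed Dusp1 in replicate 1 (124 TPM). Within each library Dusp1 was the higher, by 2.04-fold, 2.23-fold and 1.29-fold in replicates 1, 2 and 3. Dusp7 and Dusp5 also overlapped: Dusp7 was 2.31-fold higher in replicate 1, 1.39-fold higher in replicate 3, and at 0.979 of Dusp5 in replicate 2. Dusp6 and Dusp4 could not be ordered, since Dusp6 was higher in 1 of 3 libraries. Without replicate 2 Dusp4 came before Dusp6. With 3 libraries, a two-sided exact sign-flip test cannot give a p under 0.25, so no p-value is given for the order.

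Between the libraries the genes differed in how steady they were, as the plot of deviations from each gene's mean shows. Dusp5, Dusp6 and Dusp8 were over 1.5-fold higher in replicate 2 than in replicate 1, which is 3 of the 9 phosphatase genes that averaged at least 100 counts, beside 3.74% of all 10348 genes that did. The differences were 2.01-fold for Dusp5, 1.8-fold for Dusp6 and 1.59-fold for Dusp8. These 3 genes were over 1.5-fold higher in no other pair of libraries. Dusp2 was over 1.5-fold higher in replicate 3 than in replicate 1, at 1.74-fold, the only 1 of 9, beside 1.58% of genes. It was 1.91-fold higher in replicate 3 than in replicate 2, again the only 1 of 9, beside 3.11% of genes. No phosphatase gene fell short of replicate 1 by over 1.5-fold in replicate 2, beside 1.17% of genes. None did so in replicate 3 against replicate 1, beside 1.09%, or against replicate 2, beside 4.71%. Dusp10, with a mean of 53 counts, was left out of these counts, and its largest difference was 1.21-fold.

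**Figure D2:**
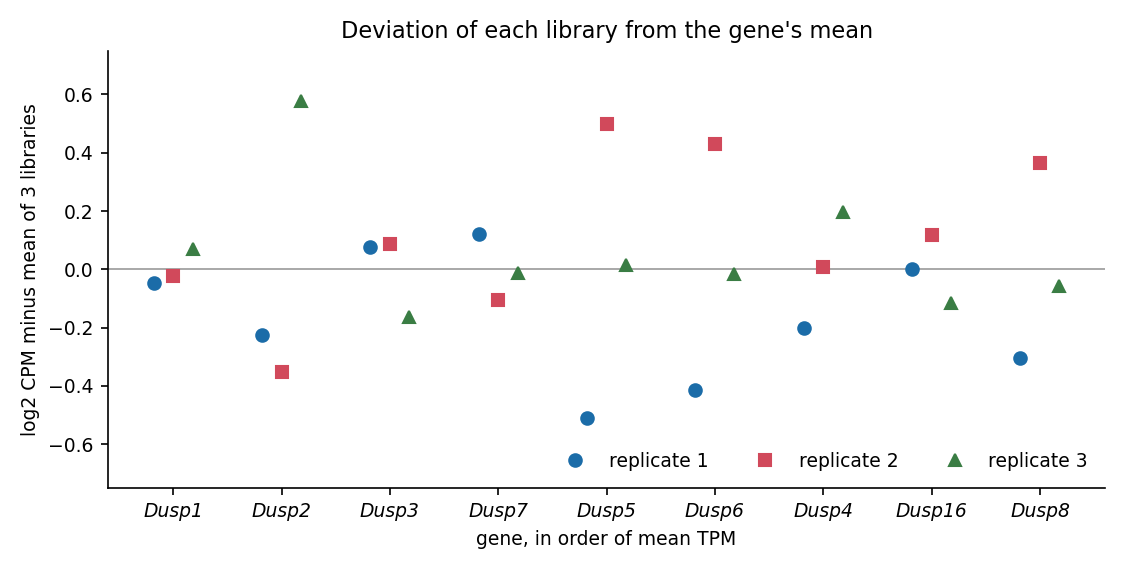
Log2 CPM of each library minus the mean of the gene's 3 libraries, for the 9 phosphatase genes that averaged at least 100 counts. Dusp5, Dusp6 and Dusp8 are lowest in replicate 1 and highest in replicate 2, Dusp2 stands out in replicate 3, and the libraries of Dusp1 lie within 0.118 of each other on the log2 scale.

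The SD of log2 CPM over the 3 libraries put numbers on that spread. It was 0.504 for Dusp2, 0.504 for Dusp5, 0.422 for Dusp6 and 0.339 for Dusp8, each above the SD of 92.1% or more of the 10348 genes. It was 0.198 for Dusp4, 0.142 for Dusp3, 0.116 for Dusp16 and 0.114 for Dusp7. Dusp1, the most abundant, was the steadiest at 0.0625, with 24.3% of genes below it. The median over the 9 genes was 0.198, beside 0.107 over all 10348 genes.

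Dusp5 had the widest range of the 9 genes, 1.01 on the log2 scale. The 5 genes whose deviations over the 3 libraries came closest to those of Dusp5 were Itgax, Gm22513, Stab2, Adamts1 and Dusp6, all within 0.097 of it in every library on the log2 scale. Itgax encodes the integrin CD11c and was at 366, 592 and 382 counts. Stab2 encodes a scavenger receptor, Adamts1 a secreted metalloprotease, and Gm22513 is annotated as a small nuclear RNA gene. Dusp6, with 803, 1199 and 805 counts, was the only other phosphatase among them. This likeness is over 3 libraries of 1 condition.

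Immediate early genes, which MAP kinase signalling switches on within minutes in many cells, also differed between the libraries. Of the 20 listed that averaged at least 100 counts, 5 exceeded 1.5-fold in replicate 2 over replicate 1, beside 3.74% of all 10348 genes. They were Fosb, Egr1, Egr2, Egr3 and Myc. Klf4 was the only one over 1.5-fold lower, beside 1.17% of all genes. Egr1, a transcription factor gene downstream of ERK, was at 116, 216 and 304 TPM, and its log2 CPM was 0.79 higher in replicate 2 than in replicate 1. Egr3 was 1.47 higher in that comparison. In replicate 3 against replicate 1 the 5 higher ones were Egr1, Egr2, Egr3, Ier3 and Nr4a1, beside 1.58% of all genes. Klf4 was again the only lower one, beside 1.09%. Ier3 had the pattern of Dusp2, with 114, 116 and 249 TPM. It was the only listed gene over 1.5-fold higher in replicate 3 than in replicate 2, while Fosb was the only lower one. These are 1 of 20 in each direction, close to the 3.11% and 4.71% of all genes. The nuclear RNAs Malat1 and Neat1 and the summed neutrophil markers, given above, were also highest in replicate 2, where the scaled counts of Dusp5, Dusp6 and Dusp8 were highest, though the neutrophil marker Mmp8 was lowest there. Their part in these differences was not tested.

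The kinases of the cascade were compared between libraries in the same way. Of 39 kinase genes that averaged at least 100 counts, none was past 1.5-fold in either direction in any of the 3 pairs. The background for these counts is the share of all genes given above for each pair and direction, from 1.09% to 4.71%. With 16 genes of other inhibitors and other dual-specificity phosphatases, 55 genes were counted. Among them Dusp28, an atypical phosphatase, was the only one that differed by over 1.5-fold in any pair, higher in replicate 3 than in replicate 2. The 6 lists hold 76 matched genes, of which 51 were detected at 1 TPM in every library, beside 41.3% of 22015 nuclear protein-coding genes. That share is also the background for the number detected in each list below.

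Of 14 listed genes of the MAP kinase family, which includes the targets of the phosphatases, 8 were detected. Which of the listed kinases these phosphatases act on was not tested. Mapk3 (ERK1) was at 41.0, 37.8 and 57.6 TPM, Mapk6 (ERK3) had a mean of 33.9 ± 5.23 TPM and Mapk14 (p38 alpha) of 23.5 ± 4.53 TPM (SD, n = 3 each). The JNK genes were lower, with Mapk9 at 8.55 ± 2.09 TPM and Mapk8 at 2.64 ± 0.636 TPM (SD, n = 3 each), and Mapk10 reached 0.01 TPM at most. The other p38 genes Mapk11, Mapk12 and Mapk13 were under 1 TPM in every library. On the TPM scale Dusp1 and Dusp2 were above each of the MAP kinase genes in every library: the lowest Dusp2 value was 60.5 TPM and the highest MAP kinase value was 57.6 TPM.

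Upstream, 6 of 7 MAP2 kinases were detected, led by Map2k2 (25.5 ± 3.77 TPM) and Map2k1 (17.7 ± 3.16 TPM), the ERK activators MEK2 and MEK1, and Map2k3 (11.5 ± 1.63 TPM) and Map2k4 (8.41 ± 1.59 TPM), activators of p38 and of JNK (SD, n = 3 each). Of 14 MAP3 kinases, 13 were detected. Map3k1 was highest at 23.3 ± 2.01 TPM (SD, n = 3), ahead of Map3k3, Map3k11 and Araf, and Map3k6 was under 1 TPM everywhere. Map3k8, the kinase that links TLR4 to ERK in macrophages, was at 9.38, 9.63 and 16.8 TPM. Downstream, 9 of 11 MAPK-activated kinases were detected, led by Mknk2 (44.5 ± 8.34 TPM), Mapkapk2 (36.2 ± 10.1 TPM), Mknk1 (30.1 ± 6.23 TPM) and Rps6ka3 (19.9 ± 3.95 TPM; SD, n = 3 each). Rps6ka5 and Rps6ka6 were under 1 TPM in every library.

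Other brakes on the pathway were present at lower levels than Dusp1, Dusp2 and Dusp3. Of 12 other inhibitors with a match, 7 were detected (4 by unscaled alignment-free TPM), with the phosphatases Ppm1a (19.6 ± 4.81 TPM) and Ppm1b (9.81 ± 1.23 TPM) the Ras pathway inhibitor Spred1 (8.69 ± 1.33 TPM) and the tyrosine phosphatase Ptpn7 (6.75 ± 1.23 TPM) highest (SD, n = 3 each). Spry1 and Spry4, feedback inhibitors of receptor tyrosine kinase signalling, were under 1 TPM everywhere. Of 18 other genes of the dual-specificity family, 8 were detected (4 by unscaled alignment-free TPM), close to the background share of 41.3%. Their highest mean was 8.66 ± 1.29 TPM (SD, n = 3), for Dusp11, an RNA phosphatase, followed by Dusp22, Styx and Dusp23. Dusp9, the close relative of Dusp6 and Dusp7, was at 0.18, 0.21 and 0.15 TPM. Dusp14 was also under 1 TPM in every library.

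**Figure D3:**
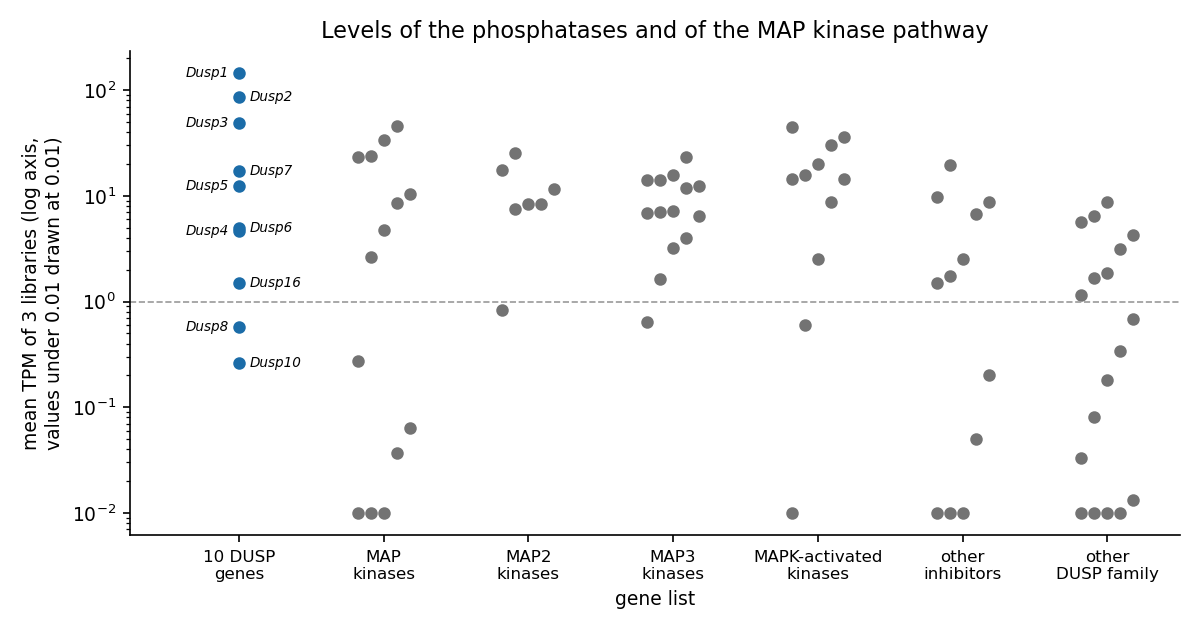
Mean TPM over the 3 libraries, on a log axis, for the 10 phosphatase genes (labelled) and the matched genes of 6 pathway lists; each point is a gene, the dashed line is 1 TPM, and means under 0.01 are drawn at 0.01. Dusp1 and Dusp2 lie above every gene of the other lists, whose highest mean is 45.4 TPM for Mapk3.

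The deposited tables also divide each gene among its annotated transcripts, 36 in all for the 10 genes. In all 10 genes the transcript with the largest mean share of the gene's TPM was the same in the alignment-based and the alignment-free tables, and it was protein-coding. Dusp4 and Dusp5 have a single annotated transcript each, so theirs had no alternative. The median over the 10 genes of the mean share on protein-coding transcripts was 97.5%, and the medians of the 3 single libraries had an SD of 0.584 percentage points. That median is partly set by the annotation: Dusp3, Dusp4, Dusp5, Dusp8 and Dusp10 have only protein-coding transcripts annotated and so stand at 100%. The 5 genes with other kinds of transcript had mean shares from 89.2% (Dusp1) to 94.9% (Dusp6) in the alignment-based tables. In the alignment-free tables these shares ran from 87.1% (Dusp1) to 93.3% (Dusp6). Dusp16 was at 94.85% in the former and 87.2% in the latter. Transcripts whose reading frame holds the catalytic loop printed above took 91.3, 82.6 and 93.8% of Dusp1, 93.8, 87.8 and 95.9% of Dusp2, and 90.8, 90.9 and 89.8% of Dusp3 in replicates 1, 2 and 3.

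**Figure D4:**
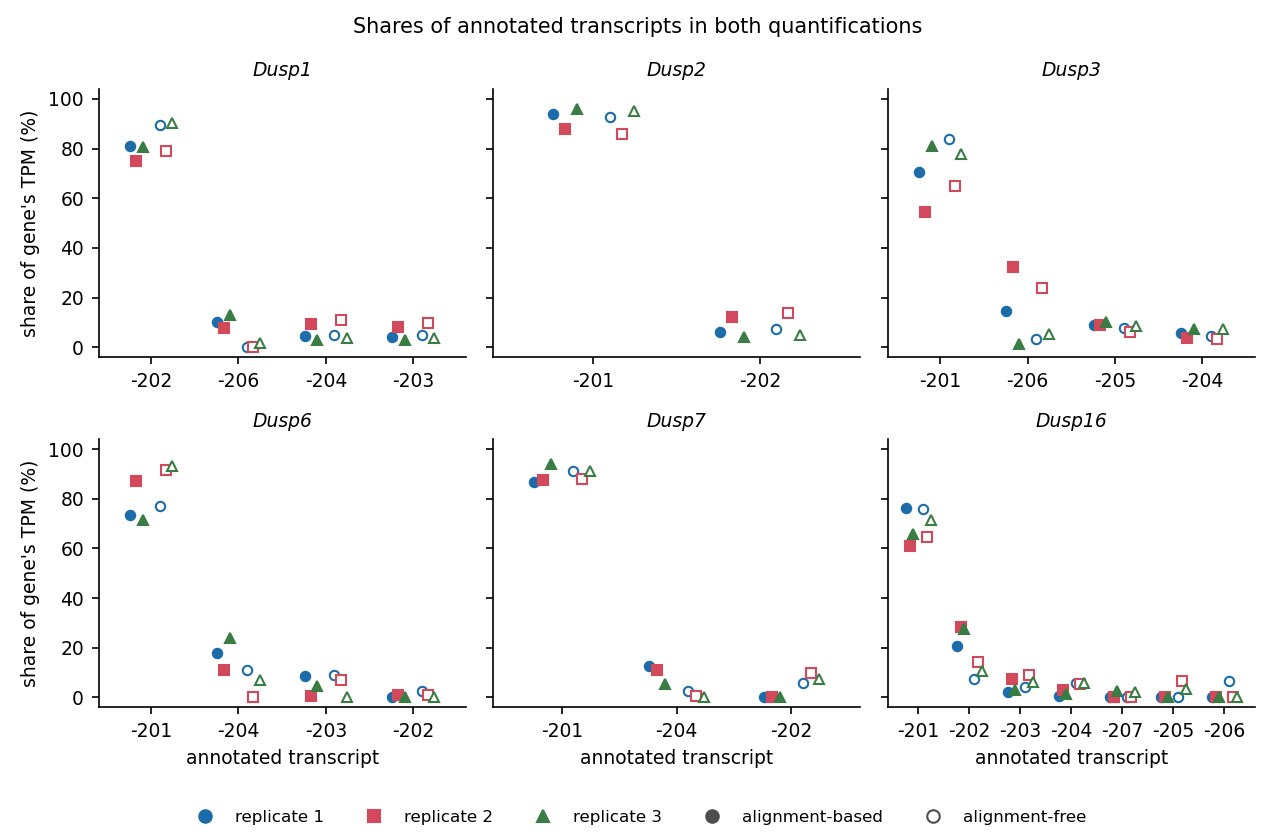
Share of the gene's TPM on each annotated transcript with at least 2% in any library, for 6 genes; filled symbols are the alignment-based and open symbols the alignment-free tables, and shapes are the libraries. The first transcript leads in each panel, Dusp1-206 has a share of about 10% in the alignment-based tables alone, and Dusp3-206 is highest in replicate 2 in both.

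Dusp1 had 4 transcripts with a share above 1% in every alignment-based table. Dusp1-202, which encodes the full-length enzyme, took 81.1, 74.95 and 80.6% in replicates 1, 2 and 3, and 89.5, 79.1 and 90.5% in the alignment-free tables. Dusp1-206, which leaves exon 1 at an inner splice donor and has a shorter reading frame of 522 bases against 1101, took 10.2, 7.63 and 13.2% in the alignment-based tables. In the alignment-free tables it took 0.181, 0.0866 and 1.87%, so its presence depended on the quantification. Dusp1-203 and Dusp1-204 are annotated as retained-intron transcripts, RNAs in which an intron was not removed, and the annotation gives them no reading frame.

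The retained introns are shown by their borders, because the transcripts that keep them differed in share between the libraries. Each line runs across a border with 15 bases on either side, and capitals mark the intron.
Dusp1 intron 2, 5′ border: cctctctacgatcagGTTAGTAGGAGTCCG
Dusp1 intron 2, 3′ border: TTTTTTTGACTTCAGgggggcccagtggag
Dusp1 intron 3, 5′ border: ctattgacttcatagGTAAATGGAATAACT
Dusp1 intron 3, 3′ border: AACTTTATTTTCCAGactccatcaaggatg
Dusp2 intron 2, 5′ border: ccgatctatgaccagGTGAGTTGATATTCG
Dusp2 intron 2, 3′ border: CCCTTCCTCCTCCAGggtggtcctgtggaa
All 3 introns begin with GT and end with AG, the usual splice signals. Dusp1 intron 2 has 369 bases (chr17:26507205-26507573, minus strand) and is kept in Dusp1-203, and intron 3 has 334 bases (chr17:26506651-26506984, minus strand) and is kept in Dusp1-204. Dusp2 intron 2 has 350 bases (chr2:127336899-127337248, plus strand) and is kept in Dusp2-202.

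Retained-intron transcripts took their highest share in replicate 2 for both genes. For Dusp1 the share of the gene's TPM was 8.73, 17.4 and 6.19% in replicates 1, 2 and 3 of the alignment-based tables, and 10.3, 20.8 and 7.62% in the alignment-free tables. Dusp1-203 (4.17, 8.03 and 3.14%) and Dusp1-204 (4.55, 9.38 and 3.05%) had the same order. For Dusp2 the share on Dusp2-202 was 6.16, 12.2 and 4.08%, and 7.39, 14.02 and 4.82% in the alignment-free tables. Dusp2-202 (756 bases) and Dusp1-204 (839) are shorter than the leading transcripts (1617 and 1990), so their shares of the counts were smaller. Dusp1-203 is longer, at 2313 bases. In the alignment-based tables Dusp2-202 had 207, 327 and 184 of 8421, 6402 and 11168 counts. Dusp1-204 had 362, 644 and 204 of 21616, 18264 and 17837. In both genes replicate 2 was above the other two libraries in both quantifications. Dusp16, the third of these genes with such a transcript, had none in the alignment-based tables and 6.59, 0 and 0% in the alignment-free tables. That 6.59% rests on 4.17 estimated counts.

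Most genes with such a transcript had their highest share in the same library. The share was highest in replicate 2 for 2 of the 3 phosphatase genes with such a transcript, beside 68.7% of 5735 detected genes in the alignment-based tables and 76.1% in the alignment-free tables. The median share over those genes was 1.53, 3.47 and 1.38% in replicates 1, 2 and 3 of the alignment-based tables. Dusp1 and Dusp2 were above that median in every library. Malat1 and Neat1 were highest in the same library, as given above, and the part of nuclear RNA in these shares was not tested.

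**Figure D5:**
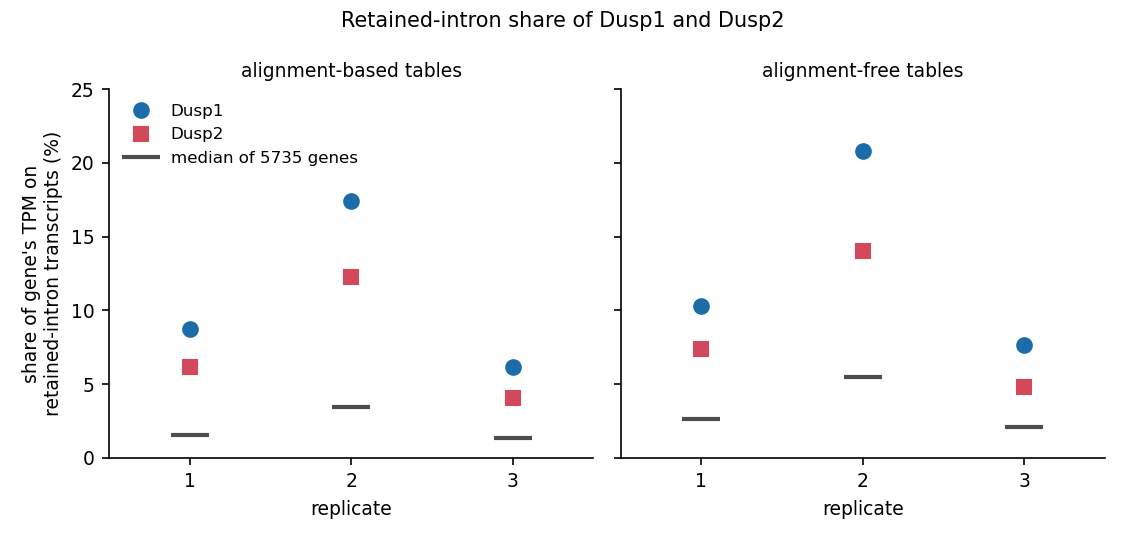
Share of the gene's TPM on retained-intron transcripts in each library for Dusp1 and Dusp2, in the alignment-based and alignment-free tables; dashes are the median over 5735 detected genes with such a transcript. Replicate 2 is highest for both genes and for the median in both panels.

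The leading and second forms of the other genes with more than a single annotated transcript are given next, in both kinds of table. Dusp3-201 took 70.7, 54.6 and 81.2% of Dusp3, and Dusp3-206, which has another first exon and a reading frame of 351 bases against 555, took 14.4, 32.5 and 1.38%. In the alignment-free tables Dusp3-206 took 3.25, 23.9 and 5.42%, so replicate 2 was highest in both, while replicates 1 and 3 changed order. Dusp3-201 took 84.0, 64.9 and 77.8% there, so its highest library moved from replicate 3 to replicate 1. Dusp6-201 took 73.6, 87.1 and 71.3% of Dusp6 in the alignment-based tables, where replicate 3 was lowest. It took 77.1, 91.7 and 93.05% in the alignment-free tables, where replicate 3 was highest. Dusp6-204, which skips exon 2 and keeps the catalytic loop, took 17.7, 11.0 and 23.95%, but 11.2, 0 and 6.95% in the alignment-free tables. Dusp7-201 took 86.9, 87.4 and 93.9% of Dusp7, and 91.2, 87.9 and 91.3% in the alignment-free tables. The second form of Dusp7 depended on the quantification. Dusp7-204, a processed transcript, took 12.8, 11.1 and 5.28% in the alignment-based tables but 2.42, 0.616 and 0.363% in the alignment-free tables. Dusp7-202, a processed transcript of 270 bases, had none in the alignment-based tables. It took 6.0, 9.97 and 7.51% in the alignment-free tables, from 9.42, 12.6 and 10.1 estimated counts. Dusp16-201 took 76.2, 61.0 and 65.6% of Dusp16, and Dusp16-202, which ends in another last exon, took 20.6, 28.3 and 27.6%, with 7.49, 14.2 and 10.7% in the alignment-free tables. Dusp16-201 took 75.7, 64.6 and 71.6% there. Its mean share was 67.6% in the alignment-based tables and 57.4% by the posterior mean isoform percent. Dusp8-201 and Dusp10-201 took all of their gene's TPM in every library except Dusp8-201 in replicate 2, at 90.4%, in the alignment-based tables. In the alignment-free tables Dusp8-201 took 96.9, 78.1 and 97.96% and Dusp10-201 took 94.8, 91.3 and 100%. By the posterior mean isoform percent their mean shares were 87.4% and 81.8%. The shares of Dusp8 and Dusp10 rest on at most 247 alignment-based counts of the gene in a library, and their second forms on far fewer. Dusp8-202 had 3.55 alignment-based and 11.1 alignment-free counts in replicate 2. Dusp10-202 had 0.732 and 1.22 alignment-free counts in replicates 1 and 2.

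Sequence outside the coding frame was compared as a description. RefSeq promoter windows on GRCm38.p6, from 250 bases before to 50 after the start, were found for 9 of the 10 genes. The first bases after the RefSeq start were found whole in no annotated transcript of Dusp8 or Dusp16. The Dusp8 window (chr7:142095235-142095534, minus strand) lies inside the annotated gene, whose 5′ end is at 142095843. The word TGACGTCA, the full cyclic AMP response element read on both strands, was in the windows of Dusp1 and Dusp8, 2 of 9, beside 1.79% of 32851 windows. The CArG box, the site of serum response factor, was in the window of Dusp5 alone, 1 of 9, beside 1.63%. GGGCGG, the core of a GC box, was in 8 of 9, beside 35.7%, and the windows of these genes were rich in G and C, at 57.3 to 78.7% against a median of 52.7%. TGANTCA, the AP-1 word, TATAAA and the NF-kappaB site were in none of the 9, beside 7.81%, 13.6% and 4.51%. The stretches with the first pair of words are shown with the words in capitals, because they set Dusp1 and Dusp5 apart from most windows; no binding was measured.
Dusp1 promoter: gggcgggTGACGTCAccgcccggtcacgtg
Dusp5 promoter: aatacCCATATTTGGCCTTATATGGgcact
The Dusp1 stretch lies from 150 to 121 bases before the RefSeq start (chr17:26508593-26508622, minus strand) and also holds a GGGCGG word on each strand and CACGTG. The Dusp5 stretch lies from 87 to 58 bases before the start (chr19:53529058-53529087, plus strand), with a pair of CArG boxes side by side.

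The 3′ untranslated regions were searched for TTATTTATT, the AU-rich word to which Zfp36 (tristetraprolin), a protein that shortens the life of inflammatory messenger RNAs, binds. Zfp36 itself was at 327, 364 and 508 TPM. Dusp1-202 held the word at bases 103 and 392 of its 690-base region, and Dusp8-201 held it at base 127 of 2370. The other 8 leading transcripts held none. In the last 500 bases of the region, where all transcripts can be compared alike, 1 of 10 phosphatase genes had the word, beside 3.59% of 13164 genes. The sites of Dusp1 are shown with the word in capitals.
Dusp1 first site: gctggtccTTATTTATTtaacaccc
Dusp1 next site: ttttacctTTATTTATTtttgtgta
They lie at chr17:26506161-26506185 and chr17:26505872-26505896 on the minus strand. The shorter word ATTTA occurred 5.8 times per kb in Dusp1 and 6.88 times in Dusp2, against a median of 1.61 over genes and none in Dusp7. Dusp3 (1.11), Dusp5 (0.902), Dusp6 (0.841) and Dusp16 (1.24) were also under that median. Dusp4 (1.8), Dusp8 (2.11) and Dusp10 (2.7) were above it.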

How the data were processed

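Values were measured by ribosomal-RNA-depleted total RNA sequencing in 3 libraries of a single group. Per the file headers, the authors deposited for each library alignment-based gene and transcript tables (in RSEM's columns) with expected counts, TPM, bounds of the TPM interval and the percent of each gene's TPM on a transcript, and an alignment-free transcript table (in kallisto's columns) with estimated counts and TPM. Per the accompanying text, the build was mm10 with GENCODE M21. No source used here gives tool versions or strandedness. Spike-in rows were left out of gene totals and tests, and expected counts were rounded for edgeR.

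Members and lists were chosen with earlier results of these data known. Alignment-free transcripts were summed to genes. Log2 CPM (prior count 2) used TMM factors from edgeR 4.0.16 in R 4.3.3, and library pairs were compared at 1.5-fold among genes that averaged at least 100 counts. The common biological coefficient of variation was 15.2% over 12744 genes. There was a single group, so groups were not tested against each other. DESeq2 1.42.0 size factors, other thresholds, the alignment-free tables and leaving out each library were alternatives. The alignment-free TPM rescaled to the alignment-based protein-coding total was added after seeing the data, because nuclear protein-coding genes took only 10.7, 6.27 and 6.54% of TPM there. The library comparison was tested on simulated counts.

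Named genes were all 10 members, the 4 highest genes and up to 2 genes below 1 TPM in each pathway list, and the 5 genes closest to the member with the widest range; 1 gene that the rule names is not reported here. Others named for their roles or as markers were chosen after their values were seen. Of 162 listed names in 17 lists, 1 had no match. Counts and intervals cover counting error only. No column of per-sample values without a label was used.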

Additional observations from a re-analysis of the deposited data

How the results depend on the processing

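No paired analysis was possible because there is a single group. The 8 detected genes remained 8 at 0.5 TPM and without any single library; at 2 TPM there were 7, at 5 TPM 5, and by unscaled alignment-free TPM 7, where Dusp16 fell out. The 4 genes over 1.5-fold in any pair of libraries were Dusp2, Dusp5, Dusp6 and Dusp8 under both scalings, the alignment-free counts and every count minimum tried; at 2-fold 1 was left, Dusp5. The differences of Dusp5, Dusp6 and Dusp8 rest on replicates 1 and 2, and that of Dusp2 on replicate 3. The median SD of log2 CPM over the phosphatase genes was 0.228 by library size alone, 0.17 with a minimum of 20 counts, and between 0.143 and 0.174 with a library left out. The median over all genes moved as well, to 0.111, 0.125, and between 0.0672 and 0.11 in the same settings. The median share on protein-coding transcripts was 96.7% in the alignment-free tables, 99.7% by estimated counts, and between 97.5% and 98.4% with a library left out. Pathway genes detected numbered 51, and between 36 and 53 under the alternatives; at 5 TPM the other inhibitors fell from 7 to 4 and the other dual-specificity phosphatases from 8 to 2, and by unscaled alignment-free TPM to 4 each. Some orders reversed. Dusp4 came before Dusp6 without replicate 2, and replicates 1 and 3 changed order for Dusp3-206 in the alignment-free tables. Between the kinds of table the library with the highest share also changed for Dusp1-202, Dusp3-201, Dusp6-201 and Dusp6-204. For Dusp6-201 replicate 3 went from lowest in the alignment-based tables to highest in the alignment-free tables. Where a value or an order moved, the cause was not tested. Depth limits Dusp8 and Dusp10 most, whose transcript shares rest on at most 247 alignment-based counts of the gene, and on far fewer for their second forms.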
